A study of Mus musculus with 8 samples.

Results

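DNA replication and S phase genes were followed across 8 RNA-Seq libraries of whole pancreatic islets from adult male mice. The set holds 45 genes, chosen by name from the gene symbols of the deposited expression matrix, and all 45 were present among its 24123 genes. Control mice were Irs2+/+;Cdk4-WT/WT (3 libraries), Diabetic mice were Irs2-/-;Cdk4-WT/WT (3 libraries), and Rescue mice were Irs2-/-;Cdk4-R24C/R24C (2 libraries). Irs2 encodes insulin receptor substrate-2, and its loss gives a model of type 2 diabetes. Cdk4-R24C is a point mutant, placed at the endogenous locus, of the G1 kinase CDK4 that INK4-family inhibitors cannot block. Both alleles were present in every tissue of the mouse from conception, so the islets were not the only site of either change, and no library carried Cdk4-R24C with intact Irs2. The comparisons asked whether genes of DNA replication differed in islets that lack Irs2, and whether they differed again once CDK4 resisted inhibition.

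Before a cell copies its genome, the origin recognition complex, CDC6 and CDT1 load the ring-shaped MCM2-7 helicase onto origins of replication in G1, a step called licensing. At the G1/S transition, CDK4 bound to a D-type cyclin phosphorylates the retinoblastoma protein, which releases E2F transcription factors that drive many genes of replication. CDC45 and GINS then join MCM2-7 to form the active helicase, DNA polymerases alpha, epsilon and delta copy the strands with the help of the PCNA clamp and its RFC loader, and ribonucleotide reductase and its partners supply the deoxynucleotides. Adult β cells replicate rarely, so most cells of an adult islet are outside S phase.

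Promoters of 3 genes are shown first, because E2F is the known link from CDK4 to genes of this kind and they held the most matches before the start site among the members described library by library below. The sequences are the 170 bases before each RefSeq start site (GRCm38.p6, the mm10 genome), written 5′ to 3′ on the strand of the gene. Capitals mark every match, on either strand, to 4 forms of the E2F binding motif. The first form is TTCCCGC, the second is TTCGCGC, the third is TTGCCGC and the fourth is TTGGCGC.
Mcm6, chr1:128359706-128359875, minus strand: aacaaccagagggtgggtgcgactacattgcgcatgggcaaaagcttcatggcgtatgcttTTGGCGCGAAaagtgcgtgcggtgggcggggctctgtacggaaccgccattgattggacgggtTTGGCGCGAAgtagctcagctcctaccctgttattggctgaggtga
Mcm5, chr8:75109339-75109508, plus strand: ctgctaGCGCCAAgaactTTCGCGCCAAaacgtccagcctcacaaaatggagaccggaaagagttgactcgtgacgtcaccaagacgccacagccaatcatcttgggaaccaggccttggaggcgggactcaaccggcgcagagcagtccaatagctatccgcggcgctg
Chaf1a, chr17:56040246-56040415, plus strand: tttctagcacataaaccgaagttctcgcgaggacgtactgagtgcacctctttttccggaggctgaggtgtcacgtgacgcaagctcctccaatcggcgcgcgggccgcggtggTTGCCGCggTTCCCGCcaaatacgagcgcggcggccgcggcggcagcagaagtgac
In Mcm6 the 4 matches form 2 runs, and in each run a forward and a reverse match overlap. Mcm5 held 3 matches, of which 2 overlap in 1 run, and Chaf1a held 2 separate matches that begin 56 and 47 bases before the start. Mcm3 also held 3 matches, but all lay after the start site and are not shown.

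RefSeq windows from 250 bases before to 50 bases after the start site were at hand for 38 of the 45 genes. At least 1 E2F match stood in 25 of the 38 (65.8%), against 19.3% of the 10000 tested genes with such a window and 10.9% of all 27025 genes with one. More than 1 match, overlapping ones included, stood in 11 of the 38 (28.9%), against 2.71% of tested genes. The CCAAT box was found in 24 (63.2%, against 42.5%). The CHR element TTTGAA, which is known from genes of G2 and mitosis, was found in 5 (13.2%, against 14.1%). For comparison, 20.3% of the 2377 genes with a window that were higher in Rescue than in Diabetic held an E2F match, close to the share of all tested genes. These matches describe the letters of a short window and are not evidence of binding.

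Expression was measured as RPKM, reads scaled to gene length and library size. Comparisons between libraries in this unit also depend on the scaling, which is varied in the closing section. The libraries held 10.3 to 14.3 M reads in genes (median 12.3 M), of which 6155 to 20723 fell in the 45 genes. Markers of β cells were abundant in every library, with 8 genes summing to between 135350 and 222270 RPKM. Irs2 itself measured 5.14 to 10.96 RPKM in Control, 22.0 to 36.3 in Diabetic and 7.15 to 16.3 in Rescue libraries. A value for the whole gene does not show whether reads came from a deleted part of the transcript, so it does not check the genotype labels, and neither does the level of Cdk4, which carries a point mutation. Differences were tested with limma on log2(RPKM + 1), and a gene was called at an adjusted p under 0.05. On this scale a difference understates the change of genes near or below 1 RPKM. Of the 45 genes, 42 had at least 1 RPKM in at least 2 libraries and were tested, and Orc1, Mcm10 and Gins2 were not.

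The replication genes were higher in Rescue islets than in both other genotypes, and none was called different between Diabetic and Control. Summed over the 45 genes, the level was 166.7, 163.2 and 164.4 RPKM in Control, 165.4, 151.4 and 159.1 in Diabetic, and 446.4 and 329.9 in Rescue libraries. The 6 libraries without Cdk4-R24C thus fell in a narrow band, and both Rescue libraries lay far above it. Both Rescue libraries exceeded all 6 others in 43 of the 45 genes, the exceptions being Orc6 and Rpa1. Among the 42 tested members they did so in 40, against 28.4% of all tested genes. Between Rescue and Diabetic the ratio of mean RPKM ran from 1.22 (Rpa1) to 11.1 (Orc1) with a median of 2.65, and it was at least 2 in 37 genes and at least 4 in 14.

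**Figure D1:**
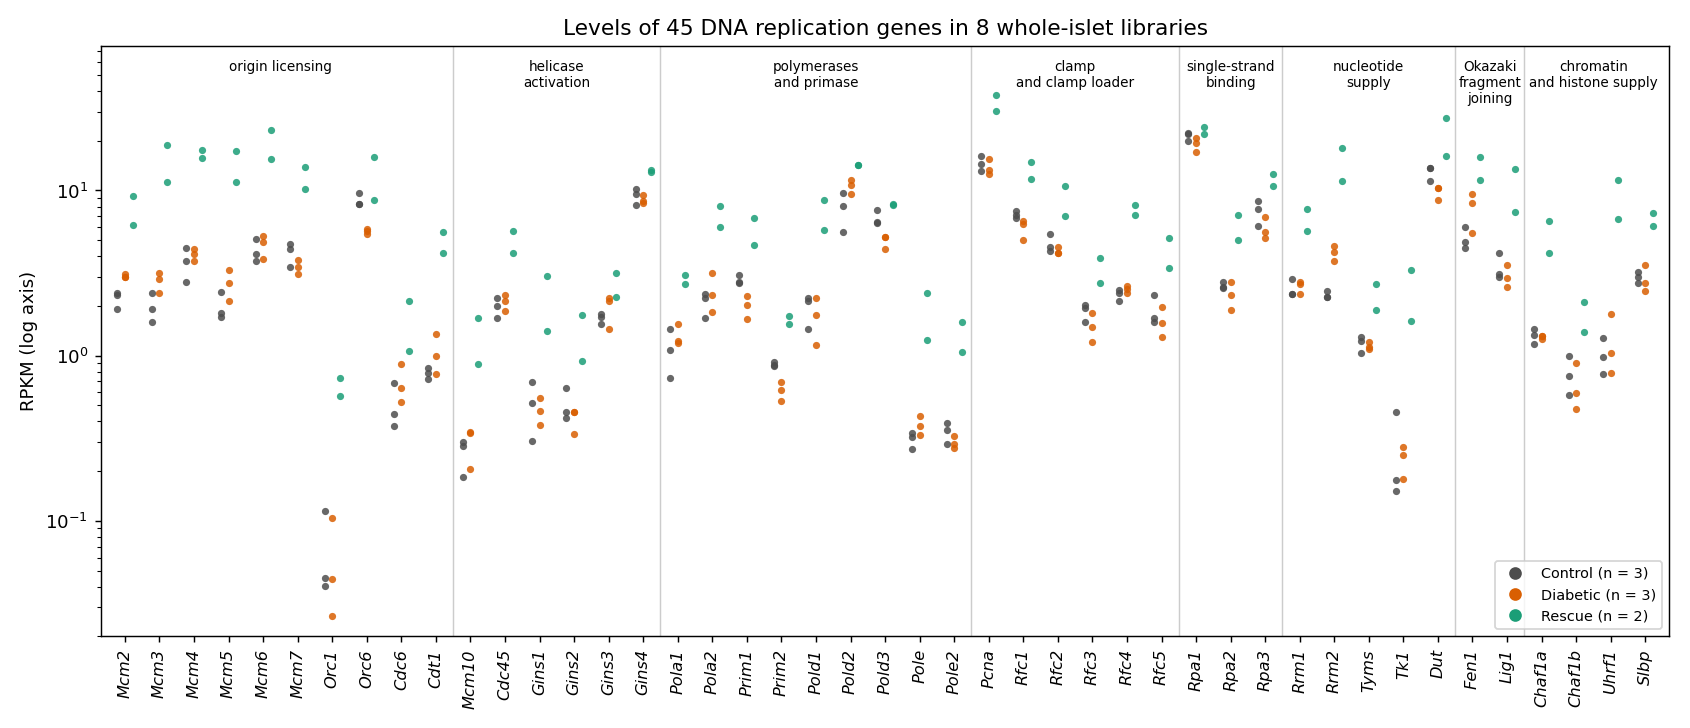
Level of each of the 45 DNA replication genes in RPKM on a log axis, 1 point per library, with genes ordered by role and genotypes by colour (3 Control, 3 Diabetic and 2 Rescue libraries). Both Rescue points stand above the other 6 in all genes but Orc6 and Rpa1, and the lowest levels are those of Orc1.

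Rescue minus Diabetic called 38 of the 42 tested genes higher and 0 lower, against 24.0% of all tested genes called higher and 5.80% lower. Among the 42 were 8 (Cdc6, Cdt1, Gins1, Prim2, Pole, Pole2, Tk1 and Chaf1b) that reached 1 RPKM in 2 libraries only because of the Rescue libraries, so they had to differ to be tested. Of the 34 that passed on the other 6 libraries alone, 31 were called higher, against 19.6% of all genes that passed in that way, with a median log2 difference of 1.06 against 0.200. With no filter on low values, 40 of the 45 genes were called higher, against 19.5% of all genes. Rescue minus Control called 35 of the 42 higher and 0 lower, against 18.0% and 5.48% of all tested genes, and 27 of the 34, against 13.2%. The Rescue libraries enter both comparisons, so the counts are not independent of each other. At an unadjusted p under 0.05, 39 genes were higher and 0 lower in each comparison. Of all tested genes, 43.5% passed that limit in either direction in Rescue minus Diabetic and 36.5% in Rescue minus Control. The fit on read numbers recovered from the RPKM steps also called 0 lower. All tested genes shifted by a median of 0.243 in Rescue minus Diabetic and 0.075 in Rescue minus Control. Scalings that took that shift to between -0.066 and 0.030 in Rescue minus Diabetic lowered the median of the 42 members from 1.04 to between 0.720 and 0.836.

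The 2 Rescue libraries differed from each other. Rescue 1 was above Rescue 2 in 41 of the 45 genes, with a median ratio of 1.44, while over all tested genes Rescue 1 was the higher in 37.7% and the median ratio was 0.899. Without Rescue 1, 17 of 35 tested genes were called higher in Rescue minus Diabetic and 16 of 35 in Rescue minus Control, against 6.27% and 8.19% of all genes in those fits. In that fit the median log2 differences of the members were 0.867 and 0.842, against 0.276 and 0.104 for all genes. Without Rescue 2 they were 1.35 and 1.17, against 0.163 and -0.000949. No gene was called lower in either fit.

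Transcripts of other cell types also moved with the Rescue genotype. Lymphocyte markers (9 genes) summed to 5.75, 24.0 and 5.51 RPKM in Control, 103, 35.7 and 6.42 in Diabetic, and 358 and 269 in Rescue libraries, and 7 of the 9 were called higher in Rescue minus Diabetic. A further 5 markers, of germinal centre B cells, which divide fast, summed to 1.31 to 1.45, 0.894 to 3.16, and 37.8 and 15.9 RPKM in the 3 groups, and all 5 were called higher. The germinal centre markers were higher in Rescue 1 than in Rescue 2 in 5 of 5, with a median ratio of 2.37. Macrophage markers (6 genes) summed to 54.4 to 102, 86.6 to 241, and 650 and 557 RPKM. Plasma cell markers (4 genes) summed to 0.843 to 80.8 RPKM in the 6 other libraries and to 361 and 219 in Rescue libraries. Markers of lymph node stroma and venules (6 genes) summed to 163 and 219 RPKM in Rescue libraries, with Diabetic 1 at 92.7 and the others at 17.3 or less. Fibroblast markers (6 genes) summed to 4.81 to 29.9 RPKM and to 96.9 and 110 in Rescue libraries, and 3 were called higher against Diabetic, while both tested duct markers were called lower. Endocrine markers were called lower against Diabetic in 2 of 3 for delta cells and in the 1 for PP cells. The same held for 1 of 4 alpha cell and 1 of 8 β cell markers. The other delta cell marker was called higher. Of all tested genes, 5.80% were called lower. Thymocyte markers were near 0 throughout, and Rag1 and Rag2 were at 0 in every library. Diabetic 1 also carried B cell RNA, below the level of Rescue 2 (Cd79b at 26.4 against 54.0 RPKM), with germinal centre markers at 2.66 RPKM against 15.9. The replication genes summed to 165.4 RPKM there, within the range of the Control and Diabetic libraries. Whether the replication transcripts of the Rescue libraries came from islet cells or from these other cells was not tested, and in whole islets fewer cells of a type and less RNA per cell cannot be told apart.

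**Figure D2:**
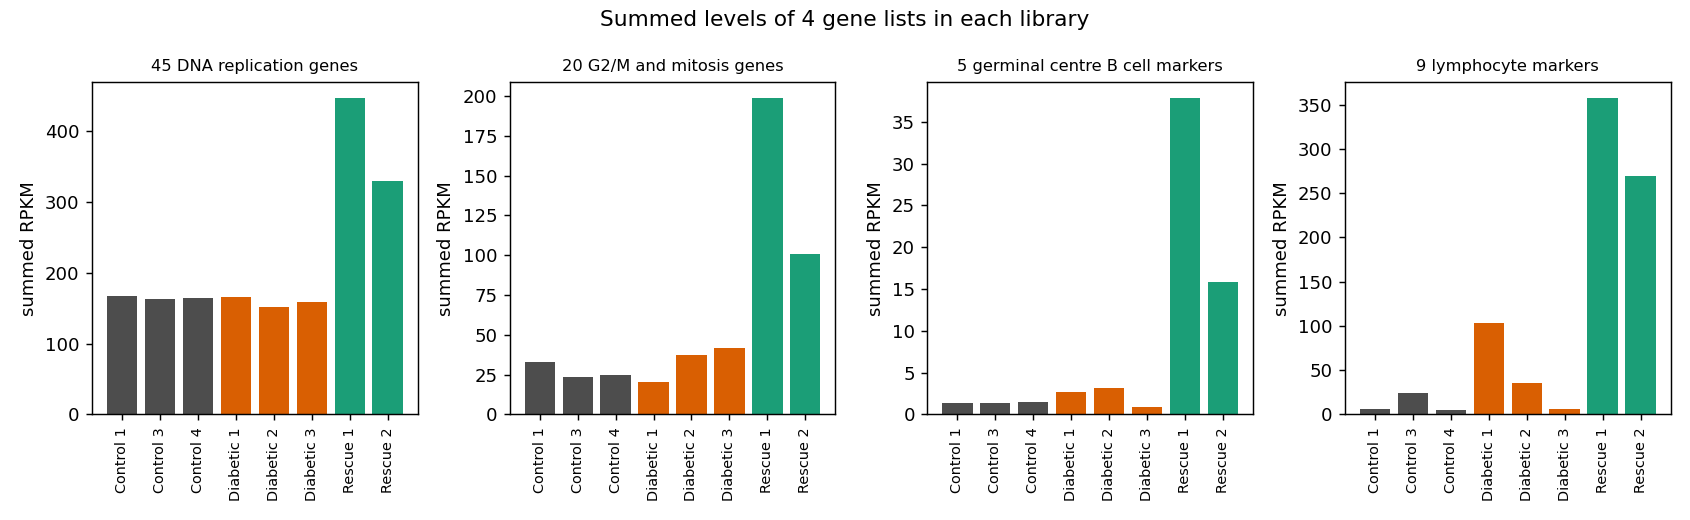
Summed RPKM in each of the 8 libraries of the 45 replication genes, 20 genes of G2/M and mitosis, 5 germinal centre B cell markers and 9 lymphocyte markers, 1 bar per library and a separate axis from 0 for each list. All 4 sums were highest in the 2 Rescue libraries. Diabetic 1 stood at 103 RPKM for lymphocyte markers, 2.66 for germinal centre B cell markers and 165.4 for replication genes.

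Origin licensing genes rose in Rescue islets, with ratios of Rescue to Diabetic means from 2.18 to 11.1. The group has 10 members: the 6 subunits of the MCM2-7 helicase, Orc1 and Orc6 of the origin recognition complex, and the loaders Cdc6 and Cdt1. Of these, 8 were called higher in Rescue minus Diabetic, against 24.0% of all tested genes. Cdc6 was not called (log2 difference 0.60 ± 0.21 SE, adjusted p = 0.0622) and Orc1 was not tested. Cdc6 and Cdt1 were tested only through the Rescue libraries.

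Mcm3 measured 1.91, 1.61 and 2.40 RPKM in Control, 2.89, 3.17 and 2.39 in Diabetic, and 18.9 and 11.3 in Rescue libraries. The Rescue values did not overlap the others, and the log2 difference from Diabetic was 2.04 ± 0.23 (SE, adjusted p = 0.00137). Mcm5 stood at 1.81, 1.71 and 2.44 RPKM, then 2.16, 3.31 and 2.77, then 17.3 and 11.3, in the same order of libraries. It rose by 2.01 ± 0.22 (SE, adjusted p = 0.00131) on the log2 scale, almost as much as Mcm3. Mcm6, at 3.76, 4.15 and 5.10 RPKM in Control, 3.86, 5.28 and 4.91 in Diabetic, and 23.4 and 15.5 in Rescue libraries, had the largest gain in RPKM of the helicase, 14.8 RPKM between the Diabetic and Rescue means. Its log2 difference was 1.83 ± 0.21 (SE, adjusted p = 0.00143). The other helicase subunits rose too, with ratios of Rescue to Diabetic means of 2.54 for Mcm2, 3.49 for Mcm7 and 4.04 for Mcm4. The 6 subunits assemble in equal number, and the most abundant exceeded the least abundant by 1.76 to 2.96 times in the 6 other libraries and by 2.51 to 2.54 times in Rescue libraries, so the spread among subunits stayed in the same range while the levels moved.

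The origin recognition complex has 2 members in the set. Orc6, its smallest subunit and the most abundant member of the licensing group in every Control and Diabetic library, measured 9.68, 8.25 and 8.25 RPKM in Control, 5.69, 5.42 and 5.87 in Diabetic, and 15.9 and 8.78 in Rescue libraries. Rescue 2 lay within the range of Control. The gene rose in Rescue minus Diabetic (log2 difference 0.95 ± 0.22 SE, adjusted p = 0.0148) but was not called in Rescue minus Control (0.41 ± 0.22 SE, adjusted p = 0.227). Orc1, the ATPase subunit whose protein comes and goes with the cell cycle in human cells, was the least abundant gene of the set, with 2 to 6 reads in Control, 1 to 5 in Diabetic, and 31 and 24 reads in Rescue libraries. The other subunits, Orc2 to Orc5, which were not among the 45 genes, had log2 differences between -0.27 and 0.18 in Rescue minus Diabetic, and none was called.

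**Figure D3:**
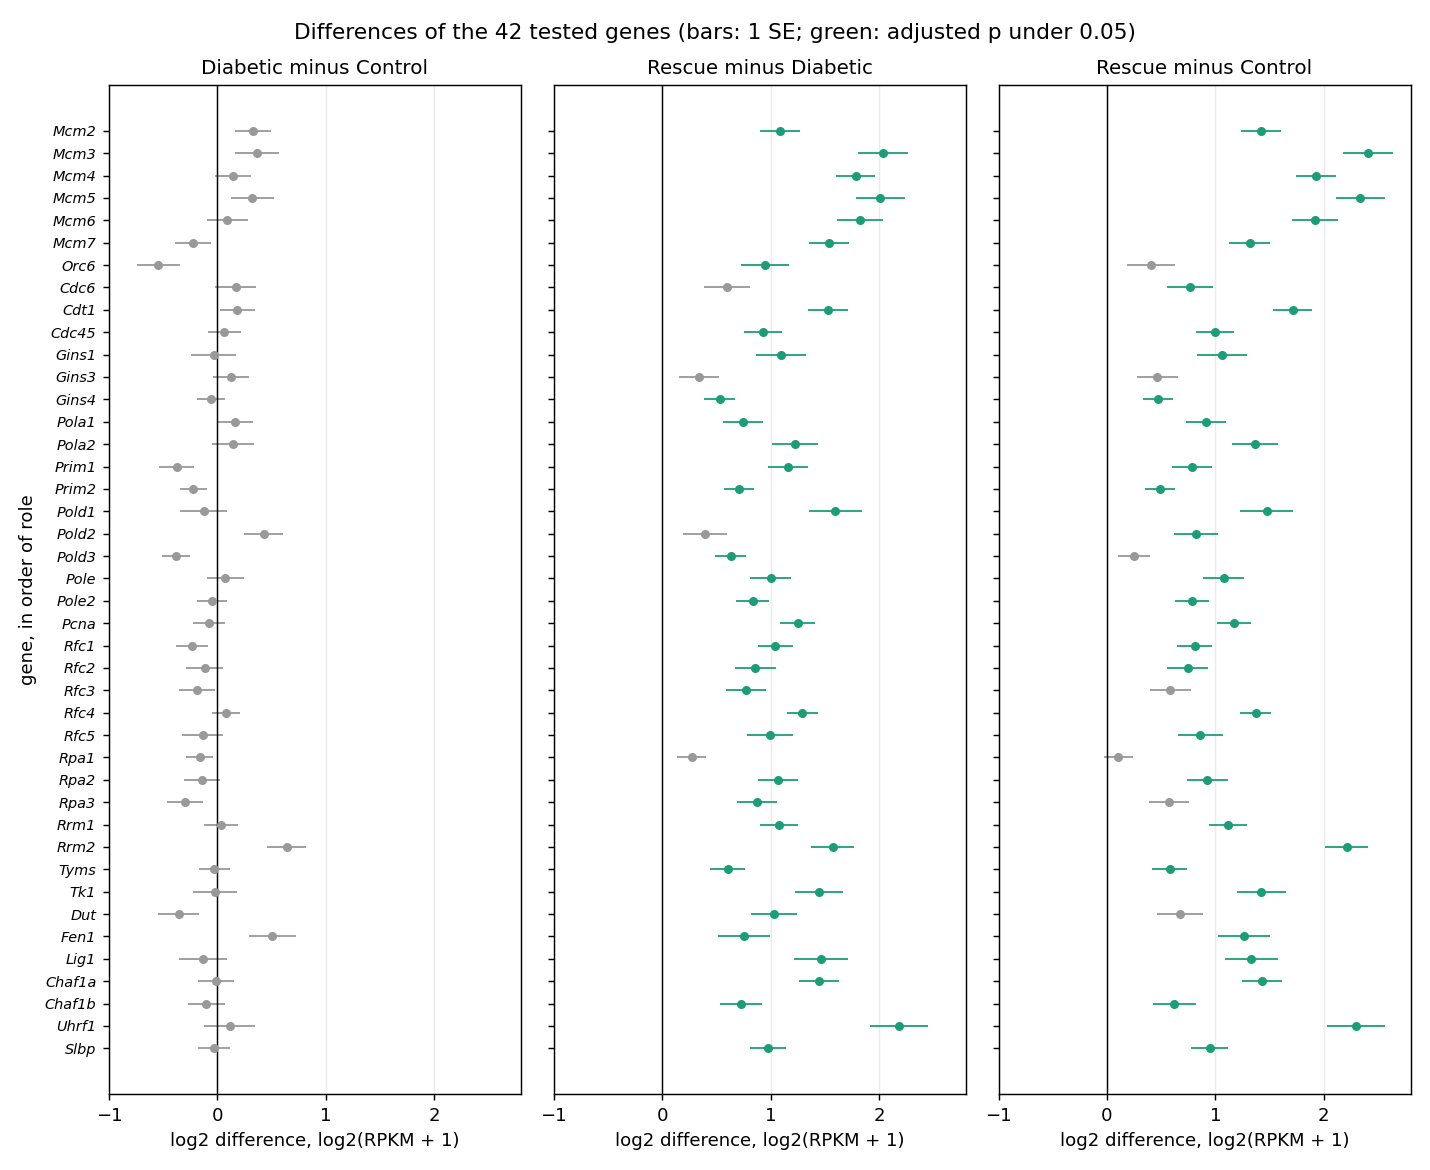
Log2 differences of the 42 tested genes on the log2(RPKM + 1) scale in the 3 comparisons, with bars of 1 SE and green points for an adjusted p under 0.05. No gene is green in Diabetic minus Control, 38 are in Rescue minus Diabetic and 35 in Rescue minus Control, with Uhrf1, Mcm3 and Mcm5 farthest to the right in Rescue minus Diabetic.

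Helicase activation, with 6 members, had ratios of Rescue to Diabetic means from 1.40 to 4.80, and its GINS subunits stood at unequal levels. Of the 4 tested members, 3 were called higher in Rescue minus Diabetic, against 24.0% of all tested genes. Cdc45, which joins MCM2-7 at the start of S phase, measured 1.9995, 2.23 and 1.68 RPKM in Control, 2.31, 1.86 and 2.15 in Diabetic, and 5.69 and 4.21 in Rescue libraries. Its values in Control and Diabetic overlapped, and it rose in Rescue (log2 difference from Diabetic 0.93 ± 0.17 SE, adjusted p = 0.00614). Gins1 was at 0.306, 0.517 and 0.695 RPKM, then 0.382, 0.552 and 0.463, then 3.05 and 1.41. Its ratio of Rescue to Diabetic means was 4.80, and it was tested only because of the Rescue libraries (log2 difference 1.10 ± 0.23 SE, adjusted p = 0.01002). Gins4 was already abundant without Cdk4-R24C, at 9.47, 8.13 and 10.2 RPKM in Control and 9.39, 8.61 and 8.44 in Diabetic libraries, and reached 12.98 and 13.4 in Rescue libraries. It was called higher (0.53 ± 0.14 SE, adjusted p = 0.0243), with a ratio of 1.495. The 4 GINS subunits act as a complex of 1 copy each, yet the most abundant exceeded the least abundant by 16.0 to 31.0 times in the 6 other libraries and by 7.40 to 14.5 times in Rescue libraries. Gins3 was not called (0.34 ± 0.19 SE, adjusted p = 0.190). Gins2 and Mcm10 had ratios of 3.23 and 4.36 and were not tested. Exons of Gins2 share 67.3% of their bases with the opposite-strand gene Gse1, and whether reads were counted by strand is not given in the sources used here.

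Polymerases and primase, 9 members, were called higher in 8 in Rescue minus Diabetic, against 24.0% of all tested genes. Ratios of Rescue to Diabetic means ran from 1.34 to 4.80. Among the 8 were Prim2, Pole and Pole2, which were tested only through the Rescue libraries and so had to differ to be tested. Pola2, the second subunit of the DNA polymerase alpha that starts each new strand, measured 2.35, 2.24 and 1.69 RPKM in Control, 3.15, 2.33 and 1.85 in Diabetic, and 8.02 and 5.995 in Rescue libraries. Its log2 difference between Rescue and Diabetic was 1.22 ± 0.21 (SE, adjusted p = 0.00450). Prim1, the catalytic subunit of primase, was at 3.099, 2.796 and 2.74, then 2.04, 1.66 and 2.30, then 6.83 and 4.71 RPKM. The Diabetic values all lay below Control and the Rescue values above both (Rescue minus Diabetic 1.16 ± 0.18 SE, adjusted p = 0.00328). Pold1, the catalytic subunit of the lagging-strand polymerase delta, measured 2.25, 2.13 and 1.46 RPKM in Control, 2.24, 1.76 and 1.15 in Diabetic, and 8.74 and 5.76 in Rescue libraries, the largest log2 difference of the group (1.60 ± 0.24 SE, adjusted p = 0.00279).

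The accessory subunits of polymerase delta were abundant in all genotypes. Pold2 stood at 8.07, 9.63 and 5.63 RPKM in Control, 11.5, 9.51 and 10.8 in Diabetic, and 14.2 in both Rescue libraries. It was not called in Rescue minus Diabetic (0.39 ± 0.20 SE, adjusted p = 0.169) but was in Rescue minus Control (0.82 ± 0.20 SE, adjusted p = 0.0201). Pold3 had the reverse pattern, called against Diabetic and not against Control (adjusted p = 0.0145 and 0.257). Within the 3 subunits, the most abundant exceeded the least abundant by 3.59 to 9.33 times in the 6 other libraries and by 1.73 to 2.46 times in Rescue libraries, because Pold1 gained most and the more abundant subunits least. For polymerase alpha and primase together the same measure did not separate the genotypes (3.07 to 5.07 times, and 3.86 to 4.61 in Rescue). Pole and Pole2, of the leading-strand polymerase epsilon, were under 0.5 RPKM in every Control and Diabetic library and had ratios of 4.80 and 4.48, and Prim2 and Pola1 had ratios of 2.67 and 2.19. Pole, Pole2 and Prim2 were tested only through the Rescue libraries.

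The clamp and clamp loader rose together. Pcna, the sliding clamp that tethers polymerases to DNA and the gene with the largest gain in RPKM of the set (20.4), measured 14.4, 13.1 and 16.2 RPKM in Control, 15.4, 13.3 and 12.5 in Diabetic, and 37.9 and 30.4 in Rescue libraries. Control and Diabetic overlapped, and the lower Rescue library stood well above both (log2 difference from Diabetic 1.25 ± 0.16 SE, adjusted p = 0.00172). Behind these values were 344 to 554 reads in the Control and Diabetic libraries, and 1102 and 886 reads in Rescue libraries.

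Rfc1, the large subunit of the clamp loader, was at 7.08, 6.82 and 7.48 RPKM, then 6.54, 5.03 and 6.23, then 14.9 and 11.7, and rose by 1.04 ± 0.16 on the log2 scale (SE, adjusted p = 0.00313). Rfc4, a small subunit, measured 2.16, 2.50 and 2.38 RPKM in Control, 2.41, 2.54 and 2.64 in Diabetic, and 8.19 and 7.14 in Rescue libraries. It had the smallest SE and the largest log2 difference of the group (1.29 ± 0.14 SE, adjusted p = 0.00131). Rfc2, Rfc3 and Rfc5 were called as well, with ratios of 2.05, 2.20 and 2.64, so all 6 members were called higher in Rescue minus Diabetic and 5 in Rescue minus Control (Rfc3 adjusted p = 0.0526). Of all tested genes, 24.0% and 18.0% were called higher in these comparisons. Rfc1 also serves outside S phase in DNA repair, and it was the most abundant RFC gene in every library. Exons of Rfc2 share 15.1% of their bases with Lat2, a gene of B cells and other leukocytes, and those of Rfc4 share 12.7% with Eif4a2.

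Replication protein A coats single-stranded DNA at the fork, and its 3 subunits, which form a trimer, differed. Rpa1, the large subunit, was the most abundant gene of the set in every Control and Diabetic library, at 20.03, 22.4 and 21.8 RPKM in Control, 20.7, 17.1 and 19.3 in Diabetic, and 22.1 and 24.2 in Rescue libraries. The Rescue and Control values overlapped, and no comparison called it (Rescue minus Diabetic 0.27 ± 0.14 SE, adjusted p = 0.159). Rpa2 measured 2.79, 2.62 and 2.58 RPKM, then 2.78, 1.89 and 2.34, then 7.07 and 5.01. It rose against both genotypes (1.07 ± 0.19 SE against Diabetic, adjusted p = 0.00451). Rpa3 lay between, at 8.69, 7.73 and 6.12 in Control, 6.88, 5.15 and 5.63 in Diabetic, and 12.6 and 10.6 in Rescue libraries, and was called against Diabetic (0.87 ± 0.19 SE, adjusted p = 0.0104) but not against Control (0.57 ± 0.19 SE, adjusted p = 0.0578). The ratio of the most to the least abundant subunit was 7.18 to 9.03 in the 6 other libraries and 3.12 and 4.84 in Rescue 1 and Rescue 2.

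Nucleotide supply, with 5 members, was called higher throughout in Rescue minus Diabetic and in 4 of 5 in Rescue minus Control. The shares of all tested genes called higher were 24.0% and 18.0%. Rrm2, the small subunit of ribonucleotide reductase that sets the S phase activity of the enzyme, measured 2.27, 2.26 and 2.46 RPKM in Control, 4.62, 3.76 and 4.22 in Diabetic, and 18.2 and 11.4 in Rescue libraries. The 3 genotypes did not overlap at all, with Diabetic between the others. Rescue exceeded Diabetic by 1.57 ± 0.20 (SE, adjusted p = 0.00165) and Control by 2.21 ± 0.20 (SE, adjusted p = 0.000370) on the log2 scale. Rrm1, the large subunit, was at 2.35, 2.35 and 2.93 RPKM in Control, 2.36, 2.79 and 2.71 in Diabetic, and 7.74 and 5.69 in Rescue libraries. Control and Diabetic overlapped, and Rescue was higher (1.08 ± 0.17 SE against Diabetic, adjusted p = 0.00344). Rrm2 and Rrm1 differed by 1.04 to 1.96 times in the 6 other libraries and by 2.01 and 2.35 times in Rescue 2 and Rescue 1, always with Rrm2 ahead in the latter.

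Tk1, the thymidine kinase of S phase cells, measured 0.459, 0.151 and 0.176 RPKM in Control, 0.279, 0.250 and 0.180 in Diabetic, and 3.31 and 1.63 in Rescue libraries. These values rest on 10 to 36 reads in the Control and Diabetic libraries and on 208 and 103 in Rescue libraries, a ratio of means of 10.5 against Diabetic (log2 difference 1.45 ± 0.22 SE, adjusted p = 0.00298), and the gene was tested only through the Rescue libraries. Dut, the dUTPase that keeps uracil out of DNA, was the most abundant of the group, at 13.7, 13.6 and 11.3 RPKM, then 10.3, 8.76 and 10.4, then 27.3 and 16.2. It rose against Diabetic (1.03 ± 0.22 SE, adjusted p = 0.00959) and missed the threshold against Control (0.67 ± 0.22 SE, adjusted p = 0.0544). Tyms, thymidylate synthase, had means of 1.19, 1.15 and 2.29 RPKM in Control, Diabetic and Rescue (adjusted p = 0.0253 against Diabetic).

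The 2 genes of Okazaki fragment joining and the 4 genes of chromatin and histone supply were all called higher in both Rescue comparisons. Of all tested genes, 24.0% were called higher against Diabetic and 18.0% against Control. Fen1, the nuclease that trims the flap of an Okazaki fragment, measured 4.51, 4.89 and 5.97 RPKM in Control, 5.50, 8.44 and 9.59 in Diabetic, and 16.0 and 11.6 in Rescue libraries. Its Rescue minus Diabetic difference was one of the smaller ones called (0.76 ± 0.24 SE, adjusted p = 0.0440), and 78.8% of its exon bases are shared with the antisense gene Gm10143. Lig1, the ligase that seals the fragments, was at 3.01, 3.12 and 4.16, then 2.61, 2.96 and 3.52, then 13.6 and 7.43 RPKM (1.47 ± 0.25 SE, adjusted p = 0.00408). Rescue 1 exceeded Rescue 2 for Lig1 with a ratio of 1.83, above the median of the set.

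Uhrf1, which recognises hemimethylated DNA behind the fork and recruits the maintenance methylase, had the largest log2 difference of all tested members. It measured 0.980, 0.773 and 1.29 RPKM in Control, 1.04, 1.79 and 0.787 in Diabetic, and 11.6 and 6.73 in Rescue libraries (2.19 ± 0.27 SE against Diabetic, adjusted p = 0.00149). Chaf1a, the large subunit of chromatin assembly factor 1, was at 1.34, 1.18 and 1.44 RPKM, then 1.27, 1.32 and 1.32, then 6.54 and 4.21. Its 6 values without Cdk4-R24C were nearly level, and it rose by 1.44 ± 0.18 on the log2 scale (SE, adjusted p = 0.00166), though 52.5% of its exon bases overlap the opposite-strand gene Ubxn6. Slbp, which binds histone mRNA, measured 2.98, 2.76 and 3.21 RPKM in Control, 3.53, 2.75 and 2.48 in Diabetic, and 7.27 and 6.10 in Rescue libraries (0.98 ± 0.17 SE, adjusted p = 0.00452). Chaf1b, the second subunit of the assembly factor, had a ratio of 2.66 and was tested only through the Rescue libraries.

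Across the 45 genes, those at a low level in Control islets tended to have the larger ratios between Rescue and Diabetic. Spearman's rho between the mean Control RPKM and the Rescue to Diabetic ratio was -0.605 over the 45 genes, which come from the same 8 libraries and are not independent. It was not taken over all tested genes, so whether the relation is particular to this set is unknown. The 5 genes with the smallest ratios were Rpa1 (1.22), Pold2 (1.34), Gins3 (1.40), Gins4 (1.495) and Pold3 (1.66). Their Control means were 21.4, 7.78, 1.68, 9.25 and 6.78 RPKM in that order, so Gins3 had a small ratio at a low level. Some partners in 1 complex followed the tendency, with higher ratios for Pold1 than Pold2, for Gins1 than Gins4, and for Rpa2 than Rpa1. Rrm2 had a higher ratio than Rrm1, though their Control means were close (2.33 and 2.54 RPKM). Others went the opposite way. Gins3, Mcm2 and Rfc3 had lower Control means than Gins4, Mcm6 and Rfc4 (1.68, 2.22 and 1.86 against 9.25, 4.34 and 2.35 RPKM). Their ratios were also lower (1.40, 2.54 and 2.20 against 1.495, 4.15 and 3.03). Differences between partners were not tested.

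**Figure D4:**
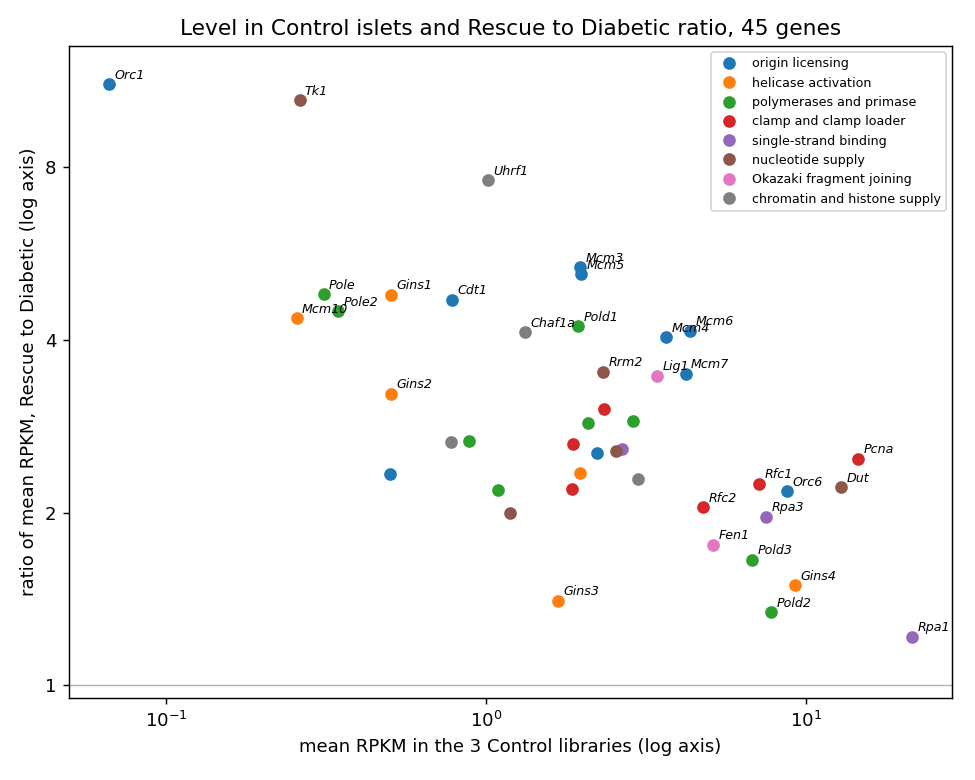
Mean RPKM in the 3 Control libraries against the ratio of mean RPKM in Rescue to Diabetic, 1 point per gene for the 45 genes, coloured by role, both axes logarithmic. Orc1, Tk1 and Uhrf1 lie at the upper left with ratios of 11.1, 10.5 and 7.59, and Rpa1 at the lower right with 1.22 (points in the crowded middle are not named).

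Diabetic islets showed no called change in these genes against Control. No member was called higher (1.53% of all tested genes were) or lower (2.44%), the smallest adjusted p was 0.0839 for Rrm2 (log2 difference 0.64 ± 0.18 SE), and the median of the 42 differences was -0.029 against -0.122 for all tested genes. At an unadjusted p under 0.05, 3 members were higher and 2 lower in Diabetic, while 23.3% of all tested genes passed that limit in either direction. Limma-voom on recovered reads also called 0 members in either direction. The Diabetic libraries all lay above the Control libraries for Mcm2 and Rrm2, against 10.2% of all tested genes, and all below for Orc6, Prim1, Prim2, Pold3, Rfc1 and Dut, against 21.5%. With libraries weighted by their quality, 6 of the 42 members (14.8% of all genes) were called higher and 11 (38.5% of all genes) lower in Diabetic, so calls appeared with that choice among members and other genes alike, and the members' shares were not above those of all genes.

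Related genes of replication that were not among the 45 numbered 52, of which 48 were tested. Rescue minus Diabetic called 30 of them higher and Rescue minus Control 28, against 24.0% and 18.0% of all tested genes, with 0 lower in either and 0 called in Diabetic minus Control. In this list 8 genes (Dbf4, Mtbp, Clspn, Atad5, Dna2, Shmt1, Hells and Pclaf) were tested only through the Rescue libraries. Of the 40 that passed on the other 6 libraries alone, 22 and 20 were called higher, against 19.6% and 13.2% of all genes that passed in that way. Pclaf, a PCNA-binding factor, had the largest log2 difference of the 48 but is one of the 8 that had to differ to be tested, with 0.812, 0.668 and 0.788 RPKM in Control, 0.978, 1.56 and 0.939 in Diabetic, and 12.5 and 6.95 in Rescue libraries (2.28 ± 0.24 SE, adjusted p = 0.00118). Samhd1, a dNTPase that degrades deoxynucleotides and is abundant in myeloid cells, followed at 3.38 to 4.34, 3.33 to 7.58, and 22.3 and 23.6 RPKM (1.91 ± 0.27 SE, adjusted p = 0.00216). Donson, a fork factor, was at 0.818 to 2.97, 0.558 to 1.51, and 4.72 and 4.88 RPKM (1.63 ± 0.33 SE, adjusted p = 0.00809). Unlike most of the 45 genes, Samhd1 and Donson were not higher in Rescue 1 than in Rescue 2. Gmnn, which blocks CDT1 after licensing, rose alongside Cdt1, from 2.37 to 3.09 RPKM in Diabetic to 10.995 and 7.48 in Rescue libraries (1.46 ± 0.22 SE, adjusted p = 0.00279). Dnmt1, the maintenance methylase that UHRF1 recruits, went from 4.90 to 5.71 RPKM in Diabetic to 16.3 and 13.1 in Rescue libraries (1.31 ± 0.16 SE, adjusted p = 0.00148). Rrm2b, the form of the small reductase subunit used outside S phase, was not called (log2 difference -0.03).

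Genes of G2 and mitosis were higher in the same 2 libraries. All 20 that were listed were called higher in Rescue minus Diabetic and in Rescue minus Control (24.0% and 18.0% of all tested genes were) and 0 in Diabetic minus Control. Aurkb, Bub1, Cenpe and Cenpf were tested only through the Rescue libraries, and the other 16 were all called in both Rescue comparisons. Mki67, a marker of cycling cells, measured 4.01, 2.10 and 3.67 RPKM in Control, 2.7995, 5.80 and 6.995 in Diabetic, and 34.0 and 14.5 in Rescue libraries (1.98 ± 0.42 SE against Diabetic, adjusted p = 0.0101). Rescue 1 exceeded Rescue 2 in 20 of 20, with a median ratio of 1.80.

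RNA that is kept in the nucleus also differed between libraries. It was high in both Rescue libraries, Control 1, Control 3 and Diabetic 1, and low in Control 4, Diabetic 2 and Diabetic 3. Within the 5 libraries rich in it, which leave 1 Diabetic library whose spread is assumed to be that of the other groups, 15 of the 42 replication genes were called higher in Rescue minus Diabetic (7.60% of all genes were) and 26 in Rescue minus Control (15.2%), with 0 lower. The sums over the 45 genes were 166.7, 163.2, 165.4, 446.4 and 329.9 RPKM in Control 1, Control 3, Diabetic 1, Rescue 1 and Rescue 2.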

How the data were processed

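Whole-islet polyadenylated RNA of 8 libraries was sequenced on an Illumina HiSeq by the authors, aligned with STAR to mm10, counted with HTSeq and analysed with edgeR. Tool versions, the annotation and the strand setting were not given in the sources used here. The authors deposited 1 RPKM value per gene and library, normalised to library size and gene length. Littermates came from multiple litters of mice that had not been extensively backcrossed, and the labels give no litter. Whether each library is 1 mouse or a pool is unknown, and p-values measure only the spread between these libraries.

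Read numbers were recovered from the steps of the deposited RPKM values (18126 of 18126 genes above 0 came out whole within 0.001 reads). A gene entered the test when 2 or more of the 8 libraries held 1 RPKM or more (12594 of 24123 genes). Values were fitted as log2(RPKM + 1) with limma 3.58.1 in R 4.3.3, all genotypes in 1 model and trended empirical Bayes, 2-sided, with Benjamini-Hochberg adjustment over all tested genes of a comparison. The procedure was tested on simulated data. Count models were not used for the main test, because RPKM values are not counts. The recovered read numbers were fitted with limma-voom as an alternative. The 3 comparisons share libraries, so they were not compared with each other by overlap or correlation. Rescue has 2 libraries, which limits precision. Read numbers show counting error only.

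The 45 members and all lists were chosen with earlier results of these data known. Values per library are given for the up to 3 called members of each role with the largest difference in Rescue minus Diabetic, the member of each role with the highest mean over the 8 libraries, and Pcna, and for up to 3 related genes, Gmnn, Dnmt1 and Mki67. Gene positions and exon overlaps came from GENCODE for GRCm38, and promoters from RefSeq. The closing section gives 21 alternatives chosen beforehand and 2 added after seeing the data, the fit on recovered reads (limma-voom) and the fit within the 5 libraries rich in nuclear RNA. Some marker genes of other cell types are not reported here by name.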

Additional observations from a re-analysis of the deposited data

How the results depend on the processing

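No member changed direction among the genes called in either Rescue comparison, and 0 were called lower there, under any alternative run. Of the counts higher in Rescue minus Diabetic and Rescue minus Control (38 and 35), some moved by more than 1.5 times. With a mean of at least 5 RPKM, which left 18 members to test, they were 16 and 13 (18.2% and 11.1% of all genes). That mean includes the Rescue libraries, so some members passed only through Rescue and had to differ to be tested. Mcm3 is an example, at 1.61 to 3.17 RPKM in the Control and Diabetic libraries. Quantile normalization gave 24 and 23 (14.3% of all genes in each), and the replicate block gave 20 for Rescue minus Control (9.52%). The count for Rescue minus Diabetic within the 5 libraries rich in nuclear RNA moved as well. There the median log2 difference of the members was 0.952, against 0.0992 for all genes. The cause of the other shifts was not tested. With 1 library left out the counts ran from 17 to 37 and from 16 to 35, both lowest without Rescue 1, when 15 of the 38 and 12 of the 35 calls were lost among genes still tested. A lone library, Rescue here and Diabetic among the 5, is assumed to vary like the other groups. With a Control or Diabetic library left out, 14.8% to 29.7% of all genes were called higher in Rescue minus Diabetic. In Rescue minus Control these shares were 14.4% to 18.9%.

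In Diabetic minus Control, 0 members were called in either direction, but array weights called 6 higher and 11 lower (14.8% and 38.5% of all genes), a fit of only the 2 genotypes called 1 and 1 of 34 tested (2.90% and 4.74%), leaving out a library gave 0 to 1 in each direction (1 and 1 without either Rescue library), and a threshold of 0.10 called 1 higher. The threshold of 0.10 called 3.65% of all genes higher in Diabetic minus Control. The replicate block gave 32 in Rescue minus Diabetic (16.4% of all genes). Replicate numbers did not pair libraries, since the deviations of same-numbered libraries correlated at -0.26 to 0.37. Scaling moved the median of all tested genes in Rescue minus Diabetic from 0.243 to between -0.066 and 0.030, and the calls over all genes from 3022 higher and 730 lower to 2065 and 1724 (median of ratios), 1878 and 1992 (trimmed mean) and 1805 and 2365 (quantile). For Rescue minus Control they went from 2268 and 690 to 2051 and 1317, 1920 and 1761, and 1804 and 2483. The members called higher were 31, 30 and 24, and 30, 29 and 23. Members under 1 RPKM, such as Orc1 with 1 to 6 reads outside Rescue, are limited by depth.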
